A study of Mus musculus with 6 samples.

Results

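Potassium channel genes were examined in lumbar dorsal root ganglia of mouse embryos at E12.5. The members were all genes of the deposited table whose symbol begins with Kcn, the prefix of potassium channel pore subunits and many of their auxiliary subunits. There were 95 of them among 24264 genes. They were sorted by symbol into 30 voltage-gated (Kv) pore genes (Kcna, Kcnb, Kcnc, Kcnd, Kcnh, Kcnq), 10 electrically silent Kv genes (Kcnf, Kcng, Kcns, Kcnv), 15 inward rectifiers (Kcnj), 14 two-pore genes (Kcnk), 8 calcium-activated and Slo genes (Kcnma, Kcnn, Kcnt, Kcnu) and 17 auxiliary genes (Kcnab, Kcne, Kcnip, Kcnmb, Kcnrg). The remaining gene, Kcnq1ot1, is a long noncoding RNA.

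The 3 miR_cKO embryos carried Wnt1-Cre and 2 floxed copies of the miR-183-96-182 cluster. Wnt1-Cre is active in the neural crest, so sensory neurons and their glia both lose the cluster, while vessels, blood and muscle are not of that lineage in the trunk. The 3 controls were not alike: controls 1 and 3 carried Wnt1-Cre, and control 2 was wild type by its title. All 6 libraries had a mixed C57/Bl6 x 129/SvEv background. Pooling of embryos within a library is a detail not given in the sources used here.

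Potassium channels let potassium leave or enter the cell and so set the resting potential, the shape of the action potential and the rate of firing. Kv channels open on depolarisation, inward rectifiers pass current best near rest, two-pore channels carry a background leak, and calcium-activated channels link firing to calcium entry. Auxiliary subunits bind the pore and change its gating or its transport to the membrane. In sensory neurons these channels shape the thresholds for touch, itch and pain. A microRNA pairs through its seed, bases 2 to 8, with messages that hold the complementary site, mostly in the 3' UTR, and lowers their stability or translation.

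The sequences of the deleted microRNAs show what a matching message must hold. They are given from RefSeq (GRCm38.p6, chromosome 6, minus strand) with the seed in capitals.

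miR-183-5p: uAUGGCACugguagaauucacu
miR-96-5p: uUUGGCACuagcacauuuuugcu
miR-182-5p: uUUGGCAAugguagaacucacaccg

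The seeds of miR-96-5p and miR-182-5p differ in their last base, so the match TGCCAAA serves both. Matches were searched on the message strand as GTGCCAT or TGCCATA (miR-183-5p), GTGCCAA or TGCCAAA (miR-96-5p), and TTGCCAA or TGCCAAA (miR-182-5p). Both forms together make the 8-base match. Only the main transcript of each gene was searched, and an annotated 3' UTR (GENCODE M21, mm10) was found in it for 91 Kcn genes. Of these, 35 held at least 1 match, with 64 matches in all, 13 of them of 8 bases. The 8-base matches of Kcnk10 and Kcnj3, which were expressed well enough to be tested, are printed next with their flanks, the match in capitals. Kcnk10 encodes a two-pore leak channel and Kcnj3 a subunit of the G protein-gated inward rectifier.

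Kcnk10, chromosome 12, 98434646 to 98434653, minus strand: gatatttcactGTGCCATAcacaactgaaa
Kcnk10, chromosome 12, 98429836 to 98429843, minus strand: tcagtcaacttGTGCCATAgatgctgcttc
Kcnj3, chromosome 2, 55597847 to 55597854, plus strand: aagagccagtgTTGCCAAAactcaatccaa

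Levels are given in RPKM, reads per kilobase of message and per M mapped reads (M, mega), in the order of controls 1 to 3 and then miR_cKO 1 to 3. Depth, estimated from the values, lay between 20.1 and 24.2 M reads, and the tested Kcn genes with whole reads recovered had a median of 282 reads in a library. All 11 sensory neuron markers and all 7 glial markers were expressed in every library, and of 5 spinal cord markers Mnx1 was at 0 in all, and 4, Mnx1 included, stayed under 1 RPKM. The 5 spinal cord markers summed to 0.732, 0.551 and 1.73 RPKM in controls 1 to 3 and to 2.45, 0.476 and 3.61 RPKM in miR_cKO 1 to 3, and their part in the Kcn levels was not tested. Mir183, Mir96 and Mir182 were listed at 0 in all 6 libraries, which checks nothing, since poly(A) libraries hold little microRNA precursor. Groups were compared with limma on log2(RPKM + 1) over the 13118 genes with at least 1 RPKM in at least 3 libraries, so a log2 change understates the change of a low gene. Adjusted p-values are Benjamini-Hochberg values over all of these genes, with a threshold of 0.05.

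Of the 95 Kcn genes, 43 reached 1 RPKM in at least 1 library and 38 were tested. The tested genes comprised 19 of 30 Kv pore genes, 3 of 15 inward rectifiers, 3 of 14 two-pore genes, 3 of 8 calcium-activated and Slo genes and 10 of 17 auxiliary genes. No silent Kv gene was tested. The other 52 genes stayed under 1 RPKM in all libraries, and 18 of those were also under 0.1 RPKM throughout. Kcnmb3, a BK channel beta subunit, was listed at 0 in all 6. Just outside the filter were Kcnj11 at 0.673 to 1.13 RPKM with 2 libraries at 1 or more, and Kcnab3, Kcnj10, Kcnrg and Kcnt2 with 1 such library each.

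**Figure D1:**
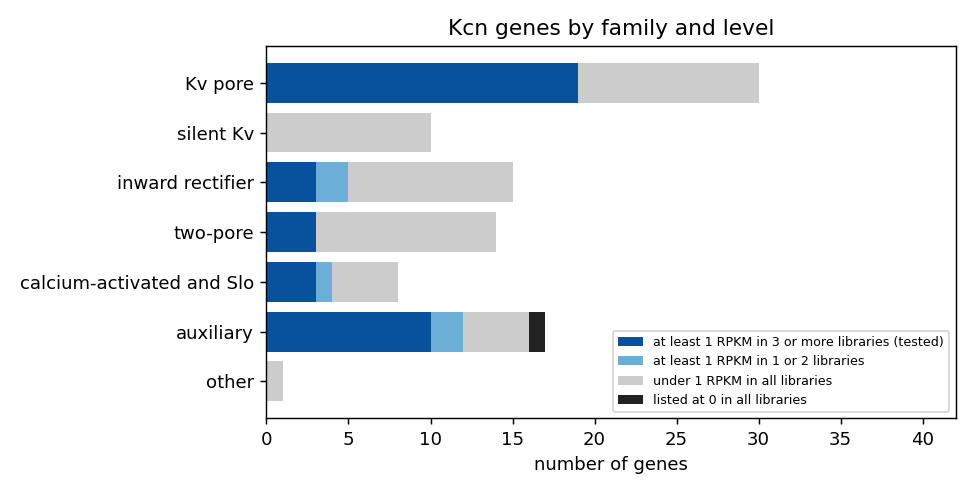
Number of Kcn genes (horizontal axis) in each family, split by the number of libraries in which they reach 1 RPKM. The 19 tested Kv pore genes and 10 tested auxiliary genes make up most of the 38, and no silent Kv gene reaches 1 RPKM.

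The auxiliary subunits held 47.0% to 51.0% of the summed Kcn RPKM of a library, more than the Kv pore genes with 34.0% to 38.3%. Inward rectifiers took 6.53% to 7.18%, two-pore genes 3.29% to 5.47%, and calcium-activated and Slo genes 3.66% to 5.11%. The single gene Kcnmb2 took 17.8% to 22.0%. Summed over all Kcn genes, the level was 301, 236 and 315 RPKM in controls 1 to 3 and 311, 247 and 221 RPKM in miR_cKO 1 to 3. The groups overlapped, at 284 ± 41.7 against 259.8 ± 46.4 RPKM (SD, n = 3 each), with the wild type control low in its group and miR_cKO 1 high in its own.

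**Figure D2:**
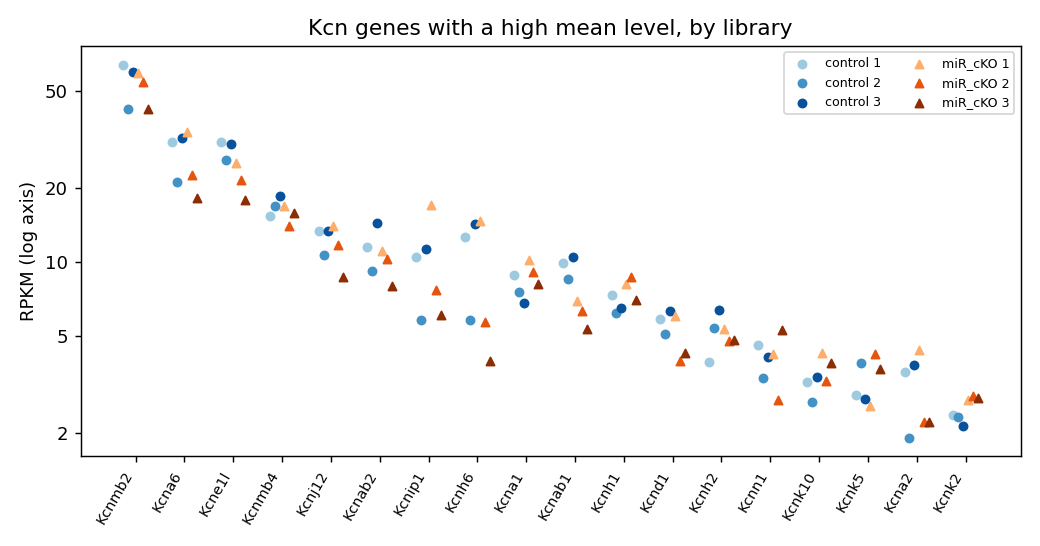
RPKM on a log axis for 18 of the 20 Kcn genes with the highest mean, with 1 point per library (circles control, triangles miR_cKO). Kcnmb2 leads in every library, between 42.04 and 64.1 RPKM, and for many genes miR_cKO 1 lies beside controls 1 and 3 rather than beside miR_cKO 2 and 3.

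No Kcn gene passed the adjusted threshold, beside 0.061% of all genes tested (8 genes, 0.0534% higher and 0.00762% lower). An unadjusted p under 0.05 was found for 2 Kcn genes (5.26% of 38), beside 5.16% of all genes. Both, Kcnab1 and Kcne1l, were lower in miR_cKO, beside 2.31% of all genes, and 0 were higher, beside 2.85%. The groups did not overlap for 5 Kcn genes (13.2%), beside 10.9% of all genes. These were 4 that were lower in miR_cKO (Kcnab1, Kcne1l and Kcnip2 among them), beside 6.24% of all genes, and 1 that was higher (Kcnk2), beside 4.63%. The log2 change was below 0 for 26 of the 38, or 68.4%, beside 59.6% of all genes. With each library centred on its median these shares became 60.5% and 47.9%. The order of the 2 shares did not hold in every fit: it turned with no filter (58.5% and 59.3%) and without control 1 (57.9% and 62.8%), control 3 (51.4% and 56.0%), miR_cKO 2 (57.9% and 60.4%) or miR_cKO 3 (48.6% and 63.5%). The median log2 change was -0.069 for the tested Kcn genes and -0.024 for all genes.

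These counts depended on single libraries. Without miR_cKO 1, 8 of 38 Kcn genes were lower at an unadjusted p under 0.05 (Kcna5, Kcnab1, Kcnb2, Kcnd1, Kcne1l, Kcnh6 and Kcnip3 among them), beside 3.23% of all genes in that fit. Without control 2 there were 4 of 37, beside 2.48%. Without control 1, 3 of 38 were higher (Kcna1, Kcnh1, Kcnip4), beside 2.51% of all genes. Without control 3 there was 1 of 37 (Kcnd3), beside 2.5%, and without miR_cKO 3 there was 1 of 37 (Kcnh1), beside 2.39%. The median log2 change of the Kcn genes was -0.156 without miR_cKO 1, -0.145 without control 2, -0.031 without miR_cKO 2, -0.007 without control 3 and 0.006 without miR_cKO 3. Kcnab1 and Kcne1l were among the lower genes at that p in each of the 6 fits that left out a library.

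**Figure D3:**
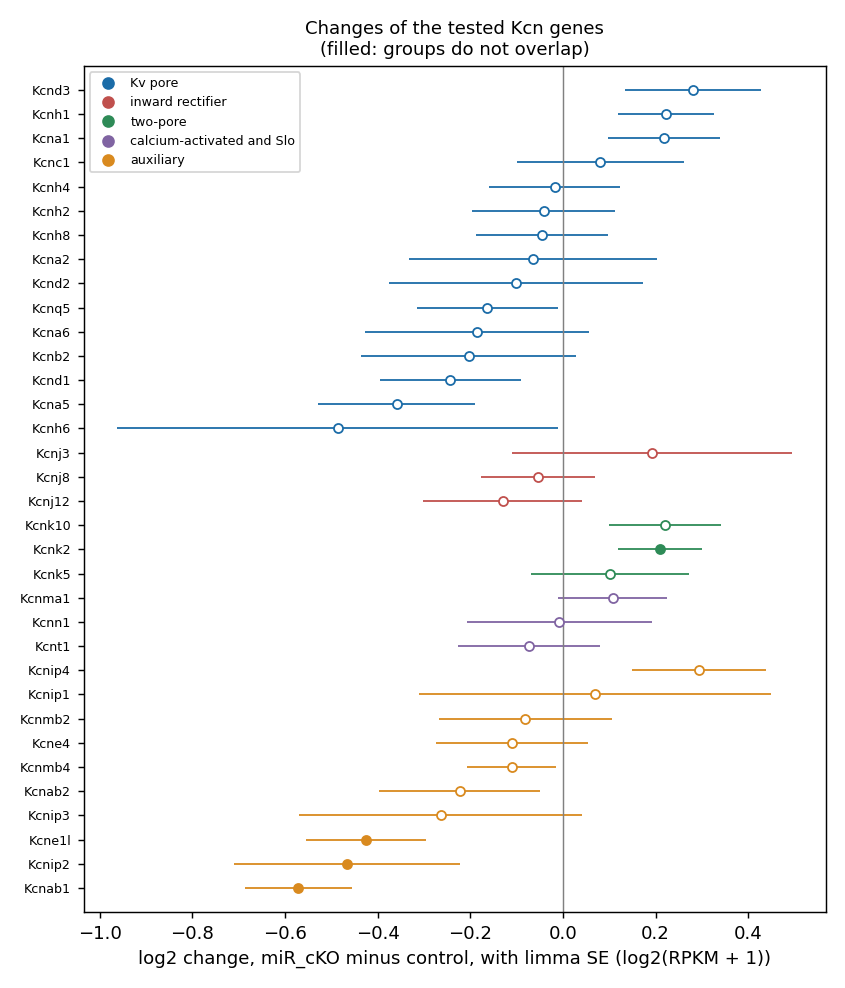
Log2 change of 34 of the 38 tested Kcn genes, miR_cKO minus control, with its limma standard error, grouped and coloured by family. Filled points mark the 4 genes shown whose groups do not overlap; Kcnab1 has the lowest change at -0.57, and the 3 two-pore genes lie above 0.

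The auxiliary subunits are described first, since they held both genes with an unadjusted p under 0.05. Of the 10 tested, 8 had a lower and 2 a higher mean log2 level in miR_cKO, with a median change of -0.167. Kcnab1 encodes a beta subunit of the Kv1 (Kcna) channels that speeds their inactivation, and lies on chromosome 3, 65109384 to 65378223, plus strand (mm10). Its level was 9.94, 8.54 and 10.5 RPKM in controls 1 to 3, against 6.90, 6.33 and 5.33 RPKM in miR_cKO 1 to 3. Every control was above every miR_cKO library. The means were 9.66 ± 1.00 and 6.18 ± 0.798 RPKM (SD, n = 3 each). The log2 change was -0.57 (SE 0.115, unadjusted p = 0.00169, limma adjusted p = 0.257).

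The recovered reads behind Kcnab1 were 637, 613 and 626 in controls 1 to 3 and 459, 415 and 328 in miR_cKO 1 to 3. Its log2 change stayed between -0.65 and -0.48 when each library was left out in turn. Its adjusted p lay between 0.24 and 0.85 over the 17 fits made. Its 3' UTR holds no match to the 3 seeds. On the other strand an antisense gene overlaps 201 of its bases, and the counting's strand setting was not given in the sources used here.

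Kcnab2, the related beta subunit, was at 11.5, 9.22 and 14.4 RPKM in controls 1 to 3 against 11.1, 10.3 and 8.01 RPKM in miR_cKO 1 to 3. These groups overlapped (log2 change -0.22, SE 0.174, limma adjusted p = 1), and leaving out control 2, control 3 or miR_cKO 3 gave changes of -0.37, -0.075 and -0.098. The ratio of Kcnab1 to Kcnab2 was 0.865, 0.927 and 0.730 in the controls and 0.620, 0.616 and 0.664 in miR_cKO. The ratio therefore separated the groups too, as a description with no test. Kcnab3, a further beta subunit, was at 0.517 to 0.897 RPKM in 5 libraries and at 1.67 RPKM in miR_cKO 3.

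Kcne1l (also called Kcne5) encodes a single-span subunit that dampens Kcnq1 currents and lies on chromosome X, 142304752 to 142306294, minus strand. It was at 31.0, 26.2 and 30.4 RPKM in controls 1 to 3 against 25.3, 21.6 and 18.0 RPKM in miR_cKO 1 to 3. The groups were separate, but by less than 1 RPKM between control 2 and miR_cKO 1 (log2 change -0.42, SE 0.129, unadjusted p = 0.0137, limma adjusted p = 0.714). On the same chromosome, Xist was at 96.0 RPKM in miR_cKO 1 and at most 0.089 RPKM in the other libraries. The part of embryo sex in the Kcne1l difference was not tested.

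**Figure D4:**
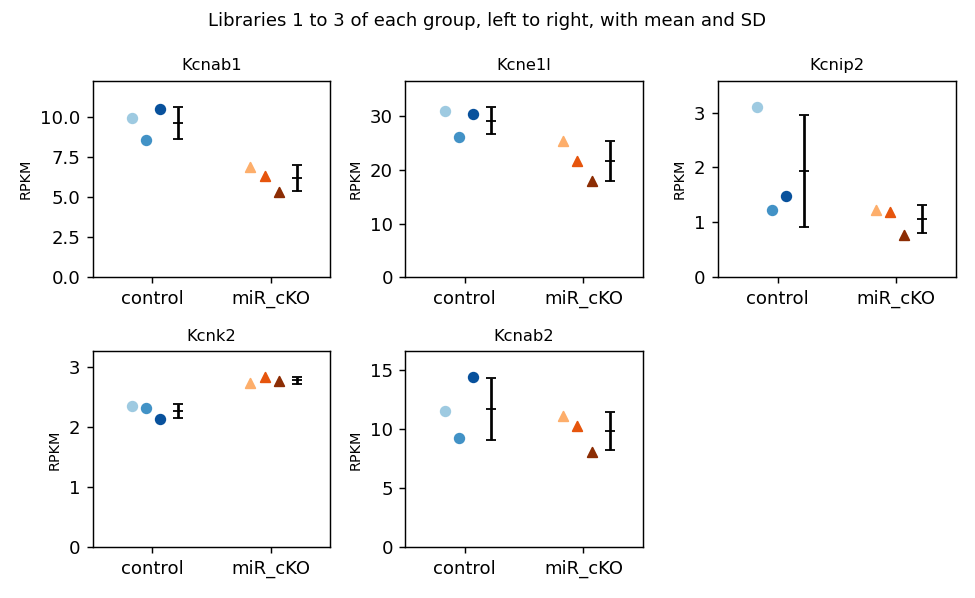
RPKM of Kcnab1, Kcne1l, Kcnip2, Kcnk2 and Kcnab2, with libraries 1 to 3 of each group as points from left to right and the group mean with its SD as a bar. The first 4 genes have groups that do not overlap, while Kcnab2 overlaps, with miR_cKO 1 at 11.1 and control 2 at 9.22 RPKM.

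The KChIP subunits (Kcnip), calcium-binding proteins that carry Kv4 (Kcnd) channels to the membrane, differed widely between single libraries. Kcnip1 was at 10.5, 5.77 and 11.3 RPKM in controls 1 to 3 against 17.0, 7.65 and 6.06 RPKM in miR_cKO 1 to 3. Both groups thus spanned low and high values, and the log2 change of 0.069 became -0.20 without control 2 and -0.33 without miR_cKO 1. Kcnip3, which is also known as the transcriptional repressor DREAM, was at 2.24, 1.63 and 2.97 RPKM in the controls and at 3.28, 1.33 and 0.964 RPKM in miR_cKO (log2 change -0.26, SE 0.305). That change was -0.60 without miR_cKO 1 and -0.035 without miR_cKO 3. As for Kcnip1, miR_cKO 1 was highest, followed by control 3 and control 1.

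Kcnip2 was at 3.11, 1.225 and 1.47 RPKM in controls 1 to 3 against 1.22, 1.19 and 0.768 RPKM in miR_cKO 1 to 3. Its groups did not overlap, but control 2 and miR_cKO 1 were nearly equal, and control 1 stood well above the rest (log2 change -0.47, SE 0.244, limma adjusted p = 1). Without control 1 the change was -0.20. Its recovered reads were 14 to 59 per library. Kcnip4 was at 0.830 to 1.40 RPKM in the controls and 1.32 to 1.75 RPKM in miR_cKO (log2 change 0.29, SE 0.144, limma adjusted p = 1). Kcne4, another single-span subunit, was at 2.12 to 2.75 RPKM in the controls and 1.58 to 2.80 RPKM in miR_cKO, while Kcne1, Kcne2 and Kcne3 reached at most 0.946 RPKM.

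The BK beta subunits (Kcnmb) set the calcium response and inactivation of the channel formed by Kcnma1. In RPKM, Kcnmb2 and Kcnmb4 were above this pore gene in every library. Kcnmb2 was at 64.1, 42.1 and 59.6 RPKM in controls 1 to 3 against 59.3, 54.5 and 42.04 RPKM in miR_cKO 1 to 3. Control 2 and miR_cKO 3 were low, 1 of each group, and the log2 change of -0.081 (SE 0.186) turned to 0.035 without control 1 and to 0.061 without miR_cKO 3. Kcnmb4 was the steadiest tested Kcn gene, with 15.4 to 18.5 RPKM in the controls and 14.1 to 16.9 RPKM in miR_cKO, a range of 1.32 times. An antisense gene overlaps 693 of its bases.

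Kcnma1 itself was at 1.33 to 1.71 RPKM in the controls and at 1.59 to 1.94 RPKM in miR_cKO. Per library, Kcnmb2 was 26.5 to 42.8 times and Kcnmb4 8.70 to 12.8 times the RPKM of Kcnma1. These multiples rest on the gene lengths behind the RPKM, which were not given in the sources used here. In recovered reads, which are not corrected for gene length, the gap was smaller. They were 245 to 332 per library for Kcnma1, 331 to 435 for Kcnmb4 and 2533 to 4022 for Kcnmb2. Kcnmb1 was at most 0.329 RPKM. So of the 4 beta subunit genes 2 were above 14 RPKM in every library, Kcnmb1 was under 1 RPKM and Kcnmb3 was at 0.

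Among the Kv pore genes, 5 of 19 tested had a higher and 14 a lower mean log2 level in miR_cKO, with a median change of -0.065. The Shaker-type Kcna genes, which make low-threshold currents that limit repetitive firing, included the most abundant pore gene, Kcna6. It was at 31.1, 21.2 and 32.0 RPKM in controls 1 to 3 against 33.9, 22.7 and 18.3 RPKM in miR_cKO 1 to 3. High and low libraries occurred in both groups, and the log2 change of -0.19 (SE 0.242) became 0.006 without miR_cKO 3. Kcna6 was also the tested Kcn gene without whole reads recovered, and an antisense gene overlaps 2355 of its bases.

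Kcna1 was at 8.89, 7.54 and 6.79 RPKM in controls 1 to 3 against 10.2, 9.11 and 8.12 RPKM in miR_cKO 1 to 3, with control 1 inside the miR_cKO range (log2 change 0.22, SE 0.12, limma adjusted p = 1). The ratio of Kcna6 to Kcna1 was 2.25 to 4.72. Kcna5 was at 1.94, 1.75 and 2.70 RPKM in the controls and at 1.79, 1.47 and 1.05 RPKM in miR_cKO (log2 change -0.36, SE 0.169, unadjusted p = 0.0708), and the change was -0.23 without control 3. Only control 2 and miR_cKO 1 crossed. Kcna1, Kcna5 and Kcna6 lie on chromosome 6, between 126532551 and 126740674. The deleted cluster is on the same chromosome but far from them, with miR-183-5p at 30169711 to 30169732. Kcnd2, at 21215503 to 21729805, is the tested Kcn gene nearest to it.

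The ether-a-go-go genes (Kcnh) had log2 changes of both signs. Kcnh1 was at 7.32, 6.20 and 6.48 RPKM in controls 1 to 3 against 8.16, 8.71 and 6.99 RPKM in miR_cKO 1 to 3, overlapping only through control 1 and miR_cKO 3 (log2 change 0.22, SE 0.104, unadjusted p = 0.0715). Kcnh6 was at 12.7, 5.80 and 14.3 RPKM in the controls and at 14.7, 5.70 and 3.94 RPKM in miR_cKO. Its libraries fell into 3 high and 3 low ones, and the high set held controls 1 and 3 with miR_cKO 1. Its log2 change was -0.49 with an SE of 0.476, and lay between -0.97 and -0.13 when libraries were left out in turn.

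Of the other tested Kv pore genes, Kcnd1, Kcnd2 and Kcnd3 make the fast A-type current. Kcnd1, on chromosome X, was at 5.06 to 6.31 RPKM in the controls and 3.96 to 6.03 RPKM in miR_cKO, and Kcnd3 at 1.54 to 2.54 and 2.33 to 2.92 RPKM. Kcnd2 was above 1 RPKM in 3 libraries of both groups, at 0.415, 1.28 and 1.21 RPKM in controls 1 to 3 against 0.499, 0.526 and 1.52 RPKM in miR_cKO 1 to 3. Kcna2, Kcnc1, Kcnh2, Kcnh4, Kcnh8 and Kcnq5 had log2 changes between -0.16 and 0.081, each with overlapping groups. The 11 Kv pore genes that were not tested stayed under 1 RPKM, Kcnh7 highest among them on average at 0.527 to 0.905 RPKM.

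The silent Kv genes, whose products do not form channels alone but modify Kcnb channels, were all under 1 RPKM. Kcns3 was the most abundant at 0.449 to 0.779 RPKM. Kcns1, linked to pain sensitivity, was at 0.1198, 0.245 and 0.294 RPKM in controls 1 to 3 against 0.066, 0.1003 and 0.0891 RPKM in miR_cKO 1 to 3. Its recovered reads were only 4 to 16 per library. Kcng1 went the other way, on 4 to 12 reads. It was at 0.0996, 0.107 and 0.0856 RPKM in controls 1 to 3 against 0.2305, 0.156 and 0.166 RPKM in miR_cKO 1 to 3. The groups of the other silent Kv genes overlapped. Kcns1 and Kcng1 were below the filter and were not tested in the main comparison.

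Of the inward rectifiers, Kcnj12 led, a strong rectifier that stabilises the resting potential. It was at 13.5, 10.7 and 13.3 RPKM in controls 1 to 3 against 14.0, 11.7 and 8.65 RPKM in miR_cKO 1 to 3, with overlapping groups, and its log2 change of -0.13 became 0.043 without miR_cKO 3. Kcnj8, the pore of ATP-sensitive channels in pericytes and smooth muscle, was at 2.01 to 2.67 RPKM in the controls and at 2.05 to 2.51 RPKM in miR_cKO. Its log2 change of -0.054 became 0.005 without miR_cKO 1. The receptor subunit Abcc9, which pairs with Kcnj8, was at 2.25 to 2.81 RPKM in the controls and 2.32 to 3.09 RPKM in miR_cKO.

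Kcnj3 varied most of all tested Kcn genes, 6.39 times between its lowest and highest library. It was at 1.16, 0.314 and 1.72 RPKM in controls 1 to 3 against 2.01, 0.899 and 1.01 RPKM in miR_cKO 1 to 3, on 13 to 77 reads. The low end was the wild type control, and the log2 change of 0.19 (SE 0.302) became -0.10 without control 2 and -0.015 without miR_cKO 1. Its 3' UTR holds 2 matches, 1 of them the 8-base match shown above. On the other strand a noncoding gene overlaps 1621 of its bases. The other 12 Kcnj genes were not tested; of these, Kcnj11, the ATP-sensitive pore of neurons and beta cells, was highest on average.

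All 3 tested two-pore genes had a higher mean in miR_cKO, with a median log2 change of 0.209. Kcnk2 (TREK-1), a leak channel opened by stretch and heat, was at 2.36, 2.32 and 2.14 RPKM in controls 1 to 3 against 2.73, 2.84 and 2.78 RPKM in miR_cKO 1 to 3. Every miR_cKO library was above every control and the spread was small, with means of 2.27 ± 0.117 and 2.78 ± 0.0534 RPKM (SD, n = 3 each). The log2 change was 0.21 (SE 0.0910, unadjusted p = 0.0558, limma adjusted p = 0.979), and lay between 0.18 and 0.23 when libraries were left out in turn. Its reads were 168 to 245 per library, and an antisense gene overlaps 604 of its bases. Kcnk2 had no 3' UTR in the search, so whether it holds seed matches is not known.

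Kcnk10 (TREK-2), the close relative with 5 seed matches, was at 3.22, 2.68 and 3.40 RPKM in the controls and at 4.23, 3.25 and 3.86 RPKM in miR_cKO. Control 3 overlapped the miR_cKO range at its lower end (log2 change 0.22, SE 0.121, limma adjusted p = 1). Kcnk5, an acid- and volume-sensitive leak channel, was at 2.85, 3.85 and 2.76 RPKM in the controls and at 2.59, 4.21 and 3.65 RPKM in miR_cKO, and its log2 change of 0.10 became -0.016 without miR_cKO 2. The summed level of the 14 two-pore genes was 9.89, 10.6 and 10.7 RPKM in the controls and 11.7, 12.03 and 12.1 RPKM in miR_cKO. These sums did not overlap between the groups and were given no test. The 11 two-pore genes that were not tested reached at most 0.688 RPKM, with Kcnk6 highest on average at 0.368 to 0.682 RPKM.

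Of the calcium-activated and Slo genes, Kcnn1, an SK channel that contributes to the afterhyperpolarisation of neurons, was at 4.57, 3.37 and 4.10 RPKM in controls 1 to 3 against 4.19, 2.74 and 5.27 RPKM in miR_cKO 1 to 3. Its mean hardly differed (log2 change -0.008, SE 0.200), and the sign turned without control 1 (0.071), control 3 (0.007) or miR_cKO 2 (0.195) and with each library centred on its median (0.021). Kcnt1, a sodium-activated channel, was at 2.00 to 2.58 RPKM in the controls and at 1.64 to 2.70 RPKM in miR_cKO. Its log2 change of -0.073 turned to 0.001 without control 3 and to 0.036 without miR_cKO 3. Of the 5 genes of this family that were not tested, Kcnt2 reached 1.22 RPKM in control 2, and the SK genes Kcnn2 and Kcnn3 and the intermediate-conductance gene Kcnn4 lay between 0.285 and 0.829 RPKM.

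Kcn levels varied between libraries of a group. For 36 of the 38 tested genes, the range over libraries in the wider group exceeded the difference between the group means on the log2 scale. This count was not made over all tested genes, so it cannot be read as particular to the Kcn genes. The highest library of a tested Kcn gene was 1.32 to 6.39 times its lowest. The highest library was miR_cKO 1 for 17 of 38 Kcn genes (44.7%), beside 14.0% of all tested genes, and control 3 for 10 (26.3%), beside 23.7%. Control 2, the wild type control, was highest for 0 of 38, beside 20.7% of all tested genes, and lowest for 12 (31.6%), beside 12.8%. miR_cKO 3 was lowest for 13 (34.2%), beside 17.2%. Xist was above 0.089 RPKM only in miR_cKO 1, at 96.0 RPKM, so embryo sex and that library cannot be told apart.

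Within the controls, control 2 lay below both others for 29 of the 38 Kcn genes (76.3%), beside 31.3% of all tested genes. It is the control without Cre, so with 1 such library the Cre and the library cannot be told apart. The median deviation of the Kcn genes from their own means over the 6 libraries, on the log2 scale, was 0.078, -0.162 and 0.201 in controls 1 to 3 and 0.169, -0.105 and -0.116 in miR_cKO 1 to 3. For all tested genes this median lay between -0.043 and 0.035.

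**Figure D5:**
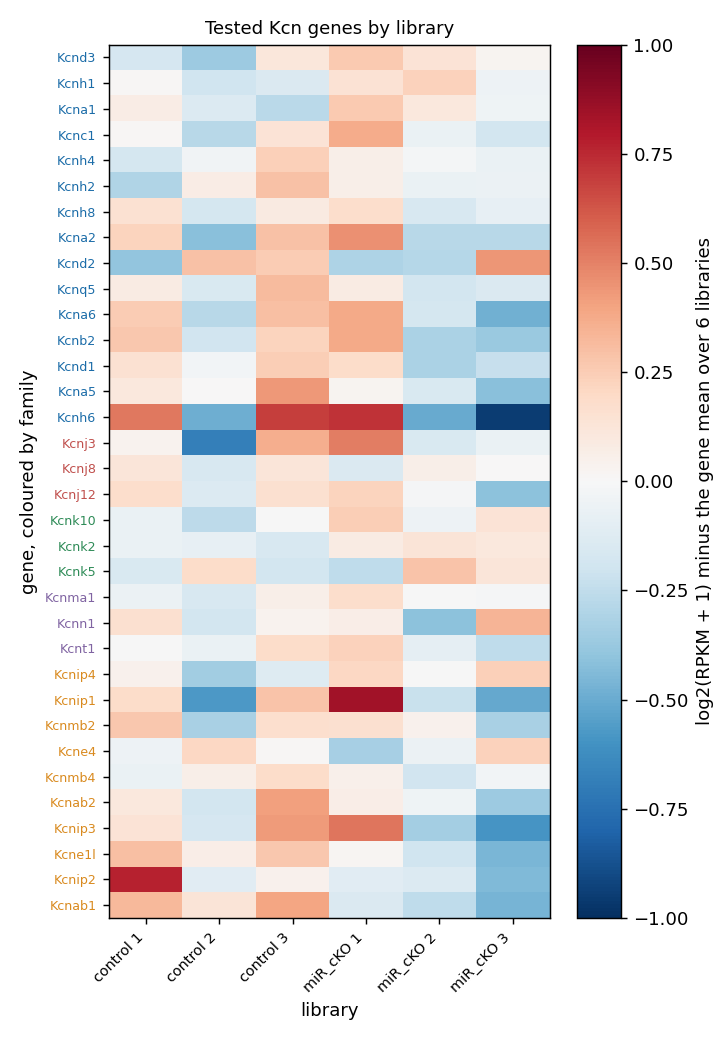
Heat map with 34 of the 38 tested Kcn genes as rows, coloured by family in their names, and the 6 libraries as columns; the colour is log2(RPKM + 1) minus the gene's mean over the 6 libraries, red above and blue below 0. Over all 38, controls 1 and 3 and miR_cKO 1 have medians above 0 (0.078, 0.201 and 0.169), and control 2, miR_cKO 2 and miR_cKO 3 have medians below 0 (-0.162, -0.105 and -0.116).

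Marker levels differed between these libraries. The summed RPKM of the 11 sensory neuron markers was 2276, 1857 and 2359 in controls 1 to 3 and 2664, 2235 and 1840 in miR_cKO 1 to 3. In this sum control 2 and miR_cKO 3 were lowest and miR_cKO 1 highest. Tubb3 and Stmn2 were its largest terms, and not every marker had this order. Tubb3, Stmn2 and Elavl4 were highest in miR_cKO 1, while Ntrk2 was highest in miR_cKO 3 and Ntrk3 in miR_cKO 2. The 7 glial markers summed to 818 to 1089 RPKM in the controls and to 861 to 976 RPKM in miR_cKO.

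The 8 muscle markers summed to 7.41, 122 and 94.6 RPKM in controls 1 to 3 and to 4.96, 7.42 and 17.3 RPKM in miR_cKO 1 to 3, and the 8 mesenchyme markers to 229 to 423 RPKM and to 202 to 295 RPKM. The 5 pericyte markers summed to 31.5 to 46.2 RPKM in the controls and 27.3 to 39.7 RPKM in miR_cKO, the 5 endothelial markers to 62.6 to 72.2 and 59.9 to 87.7 RPKM, and the 3 macrophage markers to 7.06 to 10.1 and 4.84 to 9.64 RPKM. Of 5 red cell markers 3 were in the table, at 1476 to 8441 RPKM in sum. The part of tissue makeup in the Kcn levels was not tested, and in bulk tissue fewer cells of a type and less RNA per cell cannot be told apart.

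Seed matches were about as common in the tested Kcn genes as in other tested genes, at 13 of 36 with an annotated 3' UTR (36.1%) beside 33.6%. Kcnip2 and Kcnk2 had no 3' UTR in the search and were left out. The median log2 change was -0.065 for the 13 with a match and -0.081 for the 23 without, beside 0.004 and -0.036 over all tested genes. The 6 Kcn genes with 2 or more matches (Kcna2, Kcnb2, Kcnh1, Kcnj3 and Kcnk10 among them) had a median of 0.183, with 4 above and 2 below 0, beside a median of 0.025 over the 1431 such genes. Their 3' UTRs were long, with a median of 4704 bases beside 3174, and the comparison was not matched on length. None of the 6 had a limma adjusted p under 0.05.

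Kcnb2, with 5 matches of 7 bases, was at 1.69 to 2.69 RPKM in the controls and at 1.37 to 2.98 RPKM in miR_cKO (log2 change -0.20, SE 0.232).

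Of 25 genes for partners and regulators of potassium channels, 19 were tested. Their mean was higher in miR_cKO for 11 and lower for 8, with a median log2 change of 0.007, and 0 had an unadjusted p under 0.05, beside 5.16% of all genes. Dpp10, which binds Kv4 channels, was at 1.45, 1.19 and 1.19 RPKM in controls 1 to 3 against 1.46, 1.98 and 1.61 RPKM in miR_cKO 1 to 3. It was the 1 partner of 19 whose groups did not overlap, beside 10.9% of all genes, by a gap of under 0.02 RPKM (log2 change 0.23, SE 0.123, limma adjusted p = 1). Amigo1, a Kv channel partner, was at 19.7 to 29.8 RPKM in the controls and at 17.0 to 28.3 RPKM in miR_cKO, and Rest, a repressor of neuronal genes, at 4.79 to 7.36 and 4.11 to 5.49 RPKM.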

How the data were processed

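RNA of lumbar dorsal root ganglia was sequenced in 6 stranded poly(A) libraries, 3 per group. Per the submitters' processing notes, the aligner was Bowtie and the build mm10. Its version, the counting tool and the annotation were not given in the sources used here. A single deposited table held all libraries, and the authors named no unit. The values were taken as RPKM (or FPKM), since they came in whole steps per gene and longer transcripts had smaller steps (Spearman rho -0.912 over 2175 genes, which are not independent). Whole reads, within 0.01 read, were recovered for 93.7% of genes above 0 in at least 2 libraries, and for 37 of the 38 tested Kcn genes. They give the depths: 21.6, 24.2 and 20.1 M reads (M, mega) in controls 1 to 3 and 22.4, 22.1 and 20.8 M in miR_cKO 1 to 3.

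Control and miR_cKO were compared by limma 3.58.1 in R 4.3.3 on log2(RPKM + 1), with trend and robust settings, no replicate term and Benjamini-Hochberg adjustment over the 13118 genes with 1 RPKM or more in at least 3 libraries. For simulated data with these 13118 genes for this comparison, noise was drawn independently for each gene. There, 41 of 100 planted log2 changes of 0.5 and 80 of 100 of 1 were found, with 4 false calls. Pseudocounts, filters, scalings, settings of the fit, a replicate term and each library left out were tried as alternatives.

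Genes described were Kcnab1, up to 4 tested genes per family by mean level, the 6 smallest p-values and the 5 largest ratios of (highest library + 1) to (median library + 1). Others named (the other tested Kv pore and auxiliary genes and all Kcn genes that were not tested except Kcnab3) were chosen after their values were seen. Some items covered by these rules are not reported here. Members and lists were chosen with earlier results of these data known. Tables and figures were made with pandas 2.3.3, NumPy 2.4.6, SciPy 1.17.1 and matplotlib 3.10.9 in Python 3.11.15.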

Additional observations from a re-analysis of the deposited data

How the results depend on the processing

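The number of Kcn genes with a limma adjusted p under 0.05 was 0 in all 17 fits, including those that left out a library (0 to 0). At an unadjusted p under 0.05, the count of higher Kcn genes was 0 of 38 and became 3 of 94 with no filter (beside 2.44% of all genes in that fit), 1 with each library centred on its median (3.70%), 1 without the trend setting (2.88%), 1 with the replicate block (3.03%) and 0 to 3 with a library left out (2.39% to 3.08%). The count of lower ones was 2 of 38 and became 5 of 94 with no filter (2.53%), 4 with the replicate block (3.42%) and 2 to 8 with a library left out (0.896% to 5.34%). It became 3 of 52 with a minimum of 0.5 RPKM (2.41%) and 3 of 39 with upper quartile scaling (2.2%). It was also 3 with each library centred on its median (1.55%) and without the trend setting (2.49%). The median log2 change of -0.069 lay between -0.156 and 0.006 with a library left out.

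Of 371 log2 changes of the 24 tested genes that the rule for named genes takes, under the alternatives, 355 kept their direction and their side of the threshold, and 16, in 9 genes, changed sign. With libraries left out the ranges were -0.421 to 0.006 for Kcna6, -0.333 to 0.343 for Kcnip1, -0.275 to 0.043 for Kcnj12, -0.103 to 0.421 for Kcnj3, -0.150 to 0.005 for Kcnj8, -0.016 to 0.254 for Kcnk5, -0.262 to 0.061 for Kcnmb2, -0.179 to 0.195 for Kcnn1 and -0.207 to 0.036 for Kcnt1. Kcnn1 was also at 0.021 with each library centred on its median. The cause was not tested.

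Deviations from the gene's mean in its own group were correlated between libraries over all tested genes, not the Kcn genes alone. Libraries of the same number in the titles had correlations of 0.359, 0.330 and -0.221, so the numbers were not taken as pairs. Control 2 correlated best with miR_cKO 3 (0.524) and control 3 with miR_cKO 1 (0.379). Depth limits Kcnip2 and Kcnj3, with 13 to 77 reads per library. With 3 libraries a group, 41 of 100 simulated log2 changes of 0.5 were found. Of the tested Kcn genes, only Kcnab1 changed by more than 0.5, and smaller changes were not simulated. The simulated noise was independent between genes, without the library pattern that Kcn genes share. The share of real changes that would be found is therefore not known, and changes of the size seen in Kcn genes can be missed.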

Other observations

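Kcn genes that lie near each other on a chromosome differed widely in level. On chromosome 6, Kcna6 averaged 26.5 RPKM over the 6 libraries, Kcna1 8.44 and Kcna5 1.78. On chromosome 3, Kcna2 averaged 3.01 RPKM, Kcna3 0.314 and Kcna10 0.00806. Also on chromosome 3, Kcnmb2 (31902507 to 32200180) averaged 53.6 RPKM, and Kcnmb3 (32471588 to 32492231) was listed at 0 in every library. On chromosome 11, Kcnmb1 (33963013 to 33973641, plus strand) lies within the span of Kcnip1 (33629339 to 33993152, minus strand), and these averaged 0.189 and 9.71 RPKM.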
